A study of Mus musculus with 36 samples.

Results

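The 7 genes described here encode the BCL2 proteins that guard the mitochondrion and the effectors that open it: the guardians Bcl2, Bcl2l1 (BCL-XL), Bcl2l2 (BCL-W) and Mcl1, and the effectors Bax, Bak1 (BAK) and Bok. They were chosen by name, as 4 guardians and 3 effectors among the 27179 genes of a table of mouse read counts, and all 7 had a row. RNA sequencing was done on 3 mouse lymphoma lines, AH47A, 287 and 621, whose labelled background is Em-myc, the transgene in which an immunoglobulin enhancer drives Myc in B cells. Every line carried a negative control or 1 of 5 mutants of TRP53, with G280, I192S, R246Q, R270H or V170M in the label, and each of these 6 constructs was sampled untreated and after nutlin-3a, which gave 36 libraries. Treated cultures had 5 µM nutlin-3a, which blocks MDM2 from binding p53, for 12 hours, together with 25 µM of the broad caspase inhibitor QVD-OPH. The labels do not say whether untreated cultures also had the inhibitor, so the parts of the 2 agents in a difference between treated and untreated libraries cannot be told apart. Each combination of construct and treatment was sampled once in each line, so n = 3 lines per group, and the 6 constructs stand as replicates within a line. Since the labels name no independent cultures, p-values measure only the spread between these libraries, and a difference between lines is a difference between 3 particular lines.

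BAX and BAK form the pores that release cytochrome c from mitochondria, and BOK is their relative. The guardians bind and restrain BAX and BAK, and also the BH3-only proteins, such as NOXA, PUMA and BIM, that release or activate them. In Em-myc lymphoma cells, death after p53 activation runs through this pathway, with PUMA and NOXA as direct p53 targets, and MCL-1 is known as a guardian on which such cells depend. The values here are RNA, and the amounts of the proteins were not measured. In bulk RNA, fewer cells of a type and less RNA per cell cannot be told apart.

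Libraries held 5404113 to 10718302 counts, and levels are given in CPM, the usual unit of a gene's counts relative to the total of its library, here after TMM scaling of that total. The genes that check the treatment moved with it: Cdkn1a, the p21 gene and a p53 target, was at 0.255 to 6.39 CPM in untreated libraries and at 104 to 605 CPM under nutlin. Counts on mouse Trp53, which can hold endogenous and construct transcripts, were 206 to 291 CPM in untreated controls and 693 to 2590 CPM in untreated mutants. All 11 B lineage markers passed the filter on low counts, which a gene can pass without counts in every library. Summed T lineage markers (8 genes, mostly Zap70, 1 gene at 0) reached 22.0 CPM at most, myeloid markers (7 genes, mostly Itgam, 1 at 0) 54.0 CPM, and erythroid markers (6 genes in the table) 1.78 CPM. In line 287 the T lineage sum went from 4.85 to 6.70 CPM untreated to 14.7 to 22.0 CPM under nutlin and the myeloid sum from 14.4 to 23.1 to 34.3 to 54.0 CPM. Stromal markers (9 genes, mostly Pecam1, 1 at 0) went in the same line from 121 to 135 CPM to 15.9 to 52.4 CPM. Over the 36 libraries Pecam1 held 18225 counts, Tagln 483 and no other stromal gene more than 19, so the stromal sum is in effect that of Pecam1. Of the T lineage genes Zap70 held 1617 counts, Trac 114, Cd28 48 and no other more than 10. Of the myeloid genes Itgam held 3739 counts, Cd68 1008, Csf1r 60 and no other more than 13. In AH47A the stromal sum went from 63.6 to 83.9 to 27.3 to 38.5 CPM and the myeloid sum from 5.10 to 7.28 to 9.22 to 27.0 CPM. In 621 the stromal sum went from 61.1 to 77.9 to 32.4 to 59.1 CPM and the myeloid sum from 3.78 to 6.53 to 5.99 to 15.4 CPM. The part of these in the results below was not tested.

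Of the 7 genes, 6 passed the filter on low counts and were tested among 12321 genes; Bok did not pass. Bax and Bak1, the effectors that moved in opposite directions under nutlin, are shown by the start of each gene, 250 bases before to 50 after it, taken from RefSeq (GRCm38.p6). In these windows capitals mark the palindrome CACGTG (an E-box, the motif of MYC and related factors) and a match to the p53 half-site consensus; both strands were searched. The Bax window is on the minus strand at chr7:45466849-45467148 and the Bak1 window on the minus strand at chr17:27028578-27028877.
Bax: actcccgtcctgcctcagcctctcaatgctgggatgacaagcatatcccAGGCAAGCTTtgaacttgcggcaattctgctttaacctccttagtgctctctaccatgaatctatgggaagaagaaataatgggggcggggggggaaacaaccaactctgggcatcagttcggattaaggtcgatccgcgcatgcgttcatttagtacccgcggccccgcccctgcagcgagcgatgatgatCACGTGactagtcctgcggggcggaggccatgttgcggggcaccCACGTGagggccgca
Bak1: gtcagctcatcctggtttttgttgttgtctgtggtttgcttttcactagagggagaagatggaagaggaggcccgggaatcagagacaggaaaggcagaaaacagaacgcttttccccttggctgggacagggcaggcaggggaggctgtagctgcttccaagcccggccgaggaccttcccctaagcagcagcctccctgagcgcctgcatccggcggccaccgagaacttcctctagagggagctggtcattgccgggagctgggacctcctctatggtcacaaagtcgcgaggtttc
The Bax window held 2 copies of CACGTG, which begin at bases -9 and 36 from the start, and 1 p53 half-site match, AGGCAAGCTT, at base -201. Among 32851 windows of this length, 7.15% held CACGTG, 0.594% held it 2 or more times and 8.36% held the half-site. Neither motif was found in the windows of the other 6 genes, of which Bcl2l1 has 3. The Mcl1 window, chr3:95658471-95658770, does not hold the start of that gene given below, at 95656944. Nor do the Bcl2l1 windows, which reach chr2:152831978 at most, hold the start of Bcl2l1 at 152833803 on the minus strand. Those letters are then not in these windows, and no more than that. The Bcl2 window differed in another way, with 7 copies of GGGCGG (on either strand) and 76.0% G and C, against a median of 52.7% over all windows; 35.7% of windows hold GGGCGG at least once.

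Before treatment, Mcl1 made up most guardian RNA and Bax and Bak1 nearly all effector RNA, while the minor guardian with the highest level was not the same in the 3 lines. Levels of different genes are compared per kilobase of exon, using the deposited lengths, and levels of 1 gene in CPM. In AH47A the order per kilobase was Bak1 (median 89.1 CPM per kb), Mcl1 (81.9) and Bax (69.0), whose ranges over 6 libraries overlapped from each to the next. The other 4 genes were far lower, at 2.56 (Bcl2l1), 1.35 (Bcl2l2), 1.33 (Bcl2) and 0.227 (Bok) CPM per kb, with overlapping neighbours. In 287 it was Bak1 (88.7) and Bax (78.1), which overlapped, then Mcl1 (43.0), Bcl2l2 (7.56), Bcl2l1 (2.90), Bcl2 (0.418) and Bok (0.270); only Bcl2 and Bok overlapped among the last 5. In 621 Mcl1 led (104 CPM per kb) and overlapped with Bax (93.1), followed by Bak1 (76.7), Bcl2 (2.33), Bcl2l1 (1.66), Bok (0.196) and Bcl2l2 (0.0540). Here Bcl2 overlapped with Bcl2l1, and Bok with Bcl2l2. Bcl2l2, the leading minor guardian in 287, thus had the lowest median of the 7 in untreated 621. That order rests on 11 counts for Bcl2l2 and 15 for Bok over 6 libraries, and under nutlin Bok had the lowest median.

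**Figure D1:**
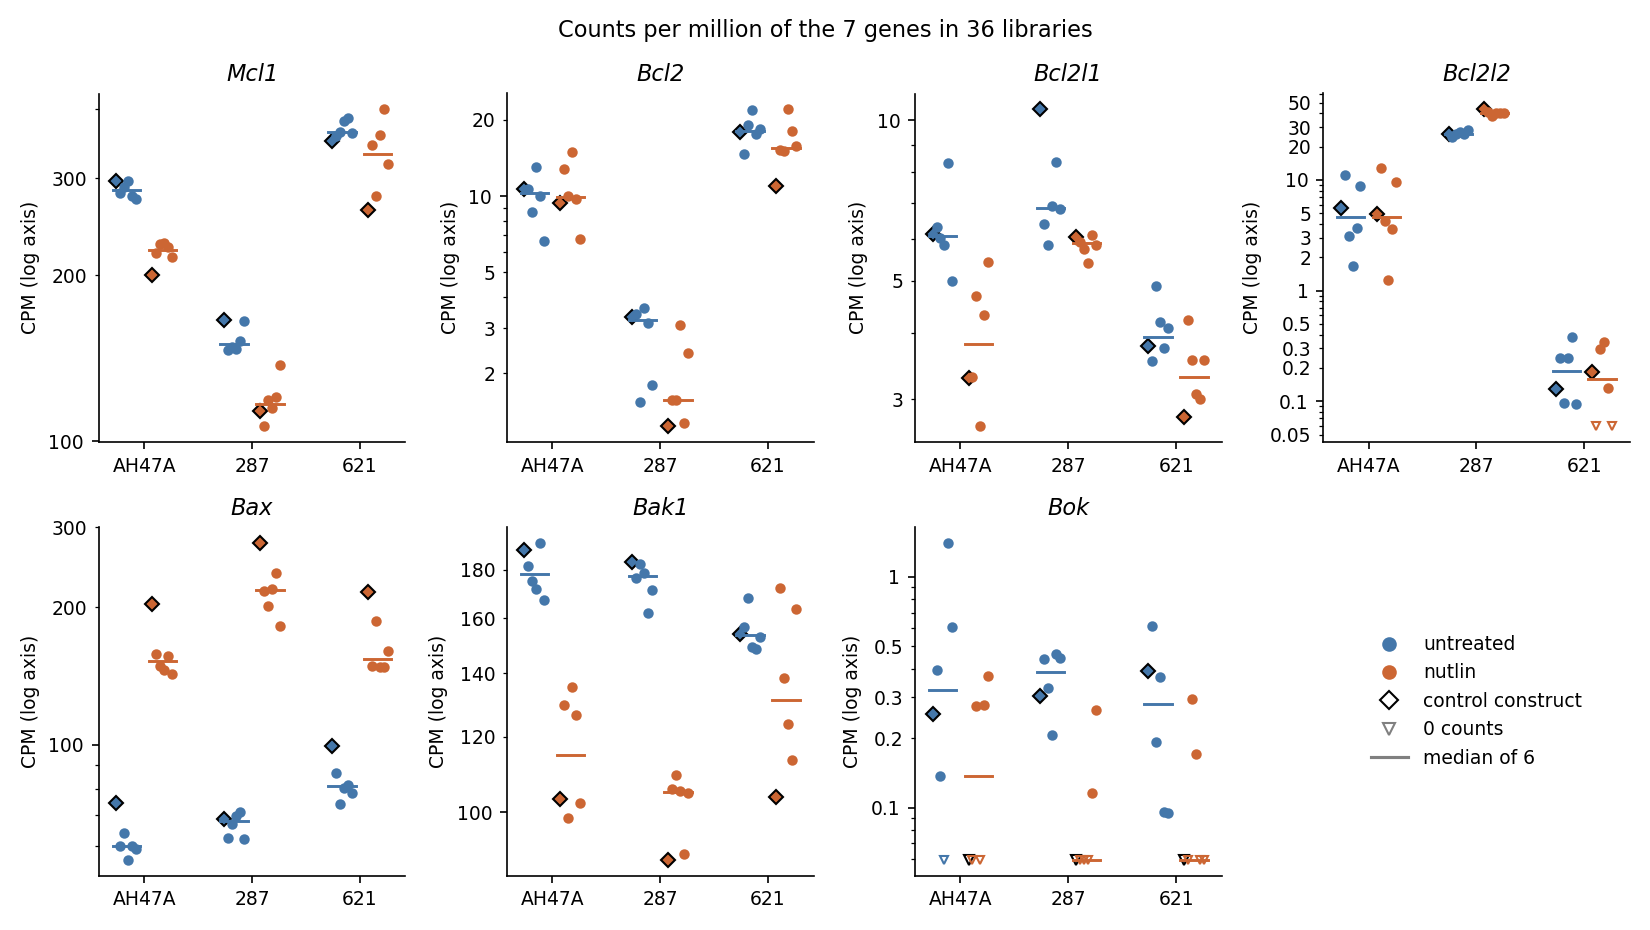
CPM (log axis) of each gene in all 36 libraries, by line and treatment; diamonds with a black outline are the control construct, bars are medians of 6 libraries and open triangles are libraries with 0 counts. Bcl2l2 lies at 24.5 to 28.0 CPM in untreated 287 and at 0.0949 to 0.384 CPM in untreated 621, while Bcl2 goes the other way, and Bax is higher under nutlin in every line.

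Mcl1, the short-lived guardian, lies on chromosome 3 at 95656944 to 95663179 on the plus strand. Untreated it was at 275 to 296 CPM in AH47A (median 286), 146 to 166 CPM in 287 (median 149.9) and 350.3 to 385 CPM in 621 (median 363). The ranges of the lines did not overlap. Line 287 was lower than AH47A by log2 -0.90 ± 0.06 (SE; edgeR quasi-likelihood test with Benjamini-Hochberg adjustment over all genes, adjusted p = 7.47e-13, n = 6 constructs per line), and 621 was higher than AH47A by 0.36 ± 0.06 (edgeR adjusted p = 1.23e-05).

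Bcl2, the founding member of the family, lies on chromosome 1 at 106538176 to 106714290 on the minus strand. It was at 6.66 to 13.0 CPM in untreated AH47A (median 10.3), 1.54 to 3.61 CPM in 287 (median 3.24) and 14.6 to 21.9 CPM in 621 (median 18.1). The ordering of the lines was the same as for Mcl1, with 621 highest and 287 lowest and no overlap. Bcl2 was higher in 621 than in 287 by log2 2.72 ± 0.17 (edgeR adjusted p = 1.94e-14), and Mcl1 by 1.25 ± 0.06 (edgeR adjusted p = 2.95e-16).

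Bcl2l2 encodes BCL-W and lies on chromosome 14 at 54883366 to 54890858 on the plus strand. It was at 24.5 to 28.0 CPM in untreated 287 (median 26.2), 1.67 to 11.2 CPM in AH47A (median 4.66) and 0.0949 to 0.384 CPM in 621, where 6 libraries held 11 counts in all. The line order was the reverse of that of Bcl2, and 621 was lower than 287 by log2 -6.99 ± 0.91 (95% interval -8.97 to -5.22, edgeR adjusted p = 1.02e-11). Within AH47A the levels of the constructs ranged widely, with 1 library per construct and treatment: G280 was at 11.2 CPM untreated and 12.8 under nutlin, and R246Q at 1.67 and 1.26. V170M had 8.78 and 9.62 CPM, the control 5.61 and 4.94, R270H 3.70 and 3.62, and I192S 3.15 and 4.27. G280 was highest and R246Q lowest in both treatments, while I192S and R270H changed places. Differences between constructs within AH47A were not tested. In 287 all 6 untreated libraries lay within 24.5 to 28.0 CPM.

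Bcl2l1 encodes BCL-XL and lies on chromosome 2 at 152758732 to 152833803 on the minus strand, where it overlaps Cox4i2; no source used here gives the strand setting of the counting, so reads of overlapping genes cannot be told apart. It was at 4.99 to 8.30 CPM in untreated AH47A, 5.84 to 10.5 in 287 and 3.53 to 4.90 in 621. Line 621 was lower than AH47A by log2 -0.62 ± 0.15 (edgeR adjusted p = 0.001) and lower than 287 by -0.86 ± 0.15 (edgeR adjusted p = 1.28e-05). Line 287 and AH47A overlapped, with a difference of 0.24 (95% interval -0.06 to 0.54, edgeR adjusted p = 0.156).

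The fitted differences of Bax and Bak1 between untreated lines were at most 0.42 in size on the log2 scale. Bax, on chromosome 7 at 45461695 to 45466903 (minus strand), was at 55.8 to 74.3 CPM in untreated AH47A, 62.2 to 71.2 in 287 and 74.2 to 99.4 in 621. It was higher in 621 than in AH47A by log2 0.42 ± 0.07 and than in 287 by 0.31 ± 0.06 (edgeR adjusted p = 2.39e-06 and 0.00014), although the ranges of 621 and AH47A overlapped by a narrow margin. Bak1, on chromosome 17 at 27019812 to 27028627 (minus strand, overlapping Ggnbp1), was at 167 to 192.2 CPM in AH47A, 162 to 184 in 287 and 148 to 168 in 621. All 3 ranges overlapped, and 621 was lower than AH47A by 0.21 and than 287 by 0.18 on the log2 scale (edgeR adjusted p = 0.0182 and 0.039). Without the control, the G280 or the R246Q construct the latter had an adjusted p of 0.104, 0.0757 and 0.104, and without the control or R270H the former had 0.0619 and 0.0533. Bok, on chromosome 1 at 93685575 to 93695770 (plus strand), had 21, 19 and 15 counts over the 6 untreated libraries of AH47A, 287 and 621.

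In counts, 3 of 6 tested genes differed between untreated 287 and AH47A, where 58.8% of all genes did. All 6 differed between 621 and AH47A (58.6% of all genes) and between 621 and 287 (60.4%). These lines differ in a majority of all genes in each pair, so the counts alone do not set the family apart.

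The balance between guardians and effectors was taken in each library as the log2 ratio of the summed guardians to the summed effectors, in CPM per kilobase; it is a description of RNA and was not tested. Untreated, it was -0.99 to -0.74 in AH47A (median -0.87), -1.68 to -1.43 in 287 (median -1.60) and -0.88 to -0.55 in 621 (median -0.63). Effector RNA thus exceeded guardian RNA per length in all 18 untreated libraries, and 287 stood lowest with no overlap with the other lines. The summed effectors were alike, with medians of 160.5 (AH47A), 166 (287) and 169 (621) CPM per kb. The summed guardians were not, with medians of 87.8, 54.2 and 109 CPM per kb, so that the order of the balance follows the guardians.

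Mcl1 carried 93.7% of guardian RNA in untreated AH47A, 79.9% in 287 and 96.2% in 621 (medians of 6). In 287, Bcl2l2 supplied another 13.8% and Bcl2l1 5.32%. Without Mcl1 the order of the lines turned round: the balance was -3.87 in 287, -4.92 in AH47A and -5.37 in 621. In plain CPM, which favours long transcripts, the untreated medians were 0.36 in AH47A, -0.36 in 287 and 0.71 in 621, so the sign in AH47A and 621 depends on the scale while the order of the lines does not.

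**Figure D2:**
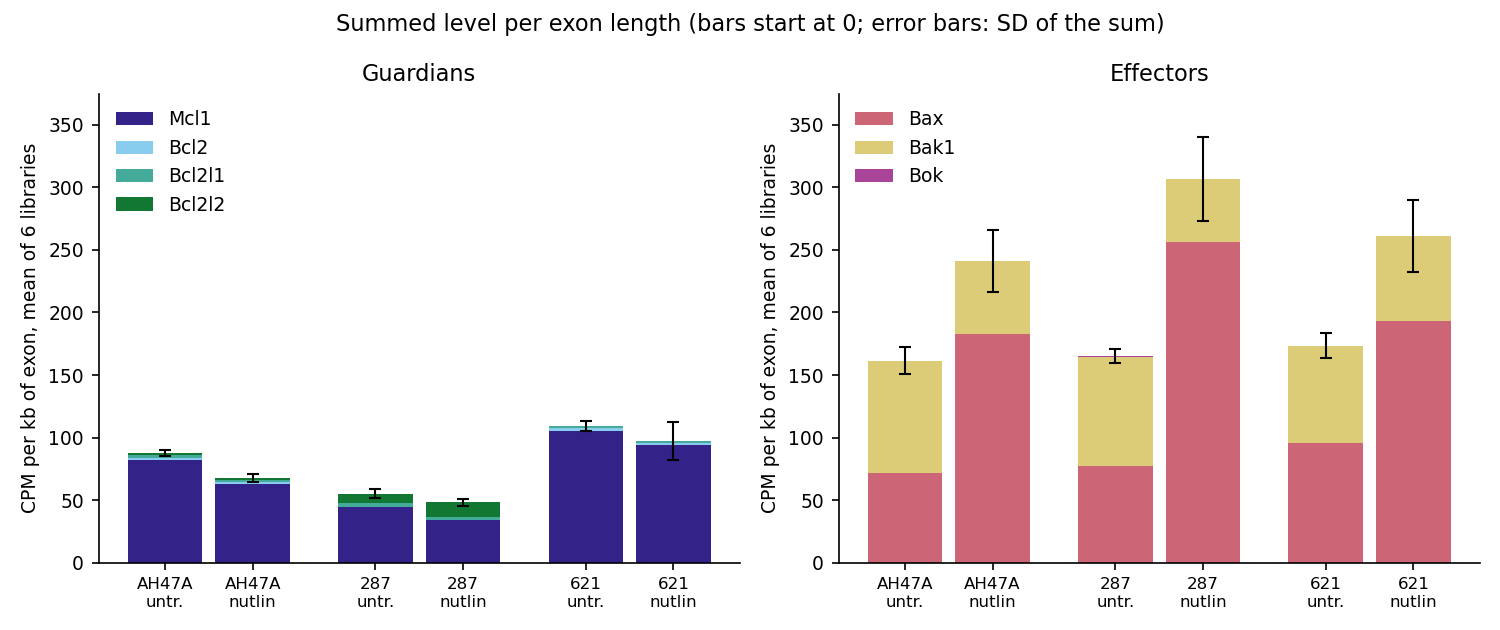
Summed CPM per kilobase of exon of the guardians (left) and effectors (right), as stacked means of 6 libraries by line and treatment; error bars are the SD of the sum. Untreated effector sums lie close together (median 160.5 to 169) while guardian sums run from a median of 54.2 in 287 to 109 in 621, and under nutlin Bax takes most of the effector bar in each line.

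Under nutlin Bax rose and Bak1 and Mcl1 fell in each of the 3 lines. Of 6 tested genes, 4 changed in AH47A, where 43.6% of all genes did: 1 rose (21.4% of all genes) and 3 fell (22.2%). In 287 all 6 changed, where 71.9% of all genes did: 2 rose (36.2%) and 4 fell (35.7%). In 621, 3 changed, where 55% of all genes did: 1 rose (26.4%) and 2 fell (28.6%). The same direction in all 3 lines was called for 22.9% of all genes, and for Bax, Bak1 and Mcl1 here. The median log2 change of all genes tested was -0.0092 in AH47A, -0.0043 in 287 and -0.026 in 621.

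Bax went from 55.8 to 74.3 CPM untreated to 143 to 203 CPM under nutlin in AH47A (medians 59.9 and 152.5). In 287 it went from 62.2 to 71.2 to 182 to 277 CPM (medians 67.8 and 219), and in 621 from 74.2 to 99.4 to 148 to 216 CPM (medians 80.9 and 154). It was higher in 18 of 18 pairs of libraries, and no line's treated range met its untreated range. The log2 change was 1.35 ± 0.06 in AH47A, 1.72 ± 0.06 in 287 and 1.01 ± 0.06 in 621 (edgeR adjusted p = 1.31e-15, 4.32e-19 and 3.24e-13). These changes differed between lines (edgeR F test, adjusted p = 5.6e-07, where 60.3% of all genes differed): the change in 287 minus that in AH47A was 0.37 ± 0.09, and that in 621 minus AH47A was -0.35 ± 0.09. In these pairs 46.9% and 31.6% of all genes differed, and between 621 and 287, where Bax differed by -0.72, 41.4%.

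Bak1 moved the opposite way. In AH47A it went from 167 to 192.2 CPM to 98.7 to 135.5 CPM, in 287 from 162 to 184 to 89.1 to 109 CPM and in 621 from 148 to 168 to 104 to 172 CPM. It was lower in 16 of 18 pairs, and the 2 exceptions were both in 621, where the ranges overlapped. The change was -0.63 ± 0.08 in AH47A and -0.81 ± 0.08 in 287 (edgeR adjusted p = 1.95e-07 and 2.79e-10). In 621 it was -0.20 ± 0.08 (edgeR adjusted p = 0.0287), and without the control construct it was -0.13 (edgeR adjusted p = 0.238). Without I192S, R246Q or R270H the adjusted p in 621 was 0.0591, 0.0638 and 0.0869, and with only the libraries of 621 fitted it was 0.0749. The lines differed in this change (edgeR F test, adjusted p = 9.3e-05), with 621 less negative than 287 by 0.60 ± 0.11. As a result of the 2 opposite shifts, Bax went from 43.9% to 75.1% of effector RNA per length in AH47A, from 46.0% to 82.7% in 287 and from 55.5% to 74.2% in 621 (medians).

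Mcl1 went from 275 to 296 CPM to 200.2 to 229 CPM in AH47A and from 146 to 166 to 106 to 137 CPM in 287, with no overlap in either. In 621 it went from 350.3 to 385 to 263 to 399.9 CPM, and the ranges overlapped. The change was -0.38 ± 0.06 in both AH47A and 287 (edgeR adjusted p = 1.34e-05 and 6.07e-06) and -0.17 ± 0.06 in 621 (edgeR adjusted p = 0.0185), lower in 17 of 18 pairs. Without the control construct the value in 621 was -0.13 (edgeR adjusted p = 0.124), and without I192S -0.13 (edgeR adjusted p = 0.088); with only the libraries of 621 fitted it was -0.15 (edgeR adjusted p = 0.0597). The F test of a difference between lines gave an adjusted p of 0.0596 with edgeR and 0.0478 with DESeq2.

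Bcl2l1 fell in AH47A by log2 -0.67 ± 0.16 (edgeR adjusted p = 0.000948), from 4.99 to 8.30 CPM to 2.67 to 5.43 CPM, and was lower in 5 of 6 constructs; V170M was the exception. In 287 it fell by -0.34 ± 0.15 (edgeR adjusted p = 0.0394), and was lower in 6 of 6, but DESeq2 gave an adjusted p of 0.0795, and edgeR without the low count filter 0.0693. Without the control, R246Q, R270H or V170M construct the edgeR adjusted p in 287 was 0.176, 0.085, 0.088 and 0.0539. In 621 it was at 2.77 to 4.22 CPM under nutlin, a change of -0.27 (95% interval -0.62 to 0.07, edgeR adjusted p = 0.173).

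Bcl2 and Bcl2l2 passed the test in 287 only, and the difference between all 3 lines was not past the threshold for either (edgeR F test, adjusted p = 0.0653 and 0.521). Bcl2 in 287 went from 1.54 to 3.61 CPM to 1.23 to 3.09 CPM, a change of -0.62 ± 0.22 (edgeR adjusted p = 0.0136). It was lower in 4 of 6 constructs, and without the control, G280 or R270H construct the adjusted p was 0.0953, 0.0612 and 0.0785. In AH47A its change was 0.09 (95% interval -0.22 to 0.39) and in 621 -0.20 (-0.48 to 0.08). Bcl2l2 in 287 went from 24.5 to 28.0 CPM to 37.6 to 43.5 CPM, with no overlap and higher in 6 of 6 constructs. The fitted change was 0.61 ± 0.24 (edgeR adjusted p = 0.0309), but DESeq2 gave an adjusted p of 0.164, and edgeR without the low count filter 0.0533. Without the control, I192S or R270H construct the edgeR adjusted p was 0.0969, 0.0551 and 0.0687. Its share of guardian RNA in 287 went from 13.8% to 24.1%, and that of Mcl1 from 79.9% to 70.2%.

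Bok, which did not pass the filter on low counts, had 55 counts over 18 untreated libraries and 13 over 18 treated libraries, of which 1 and 11 had none. The ratio of the rates was 0.27 (exact 95% interval 0.136 to 0.501, which covers counting error only). It was below 1 in each line, at 0.335 in AH47A (0.12 to 0.819), 0.169 in 287 (0.0319 to 0.573) and 0.28 in 621 (0.052 to 0.99). Of the 55 untreated counts, 11 came from the R270H library of AH47A. With the filter left out, the edgeR adjusted p of Bok was 0.00674 in 287, 0.0542 in AH47A and 0.0503 in 621. By construct it was 0.0457 with G280 and 0.054 with the control, and the 3 treated libraries of each were at 0. With R270H, R246Q, V170M and I192S the edgeR adjusted p was 0.1718, 0.5979, 0.8275 and 0.9624. The log2 change with I192S was -0.3782.

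**Figure D3:**
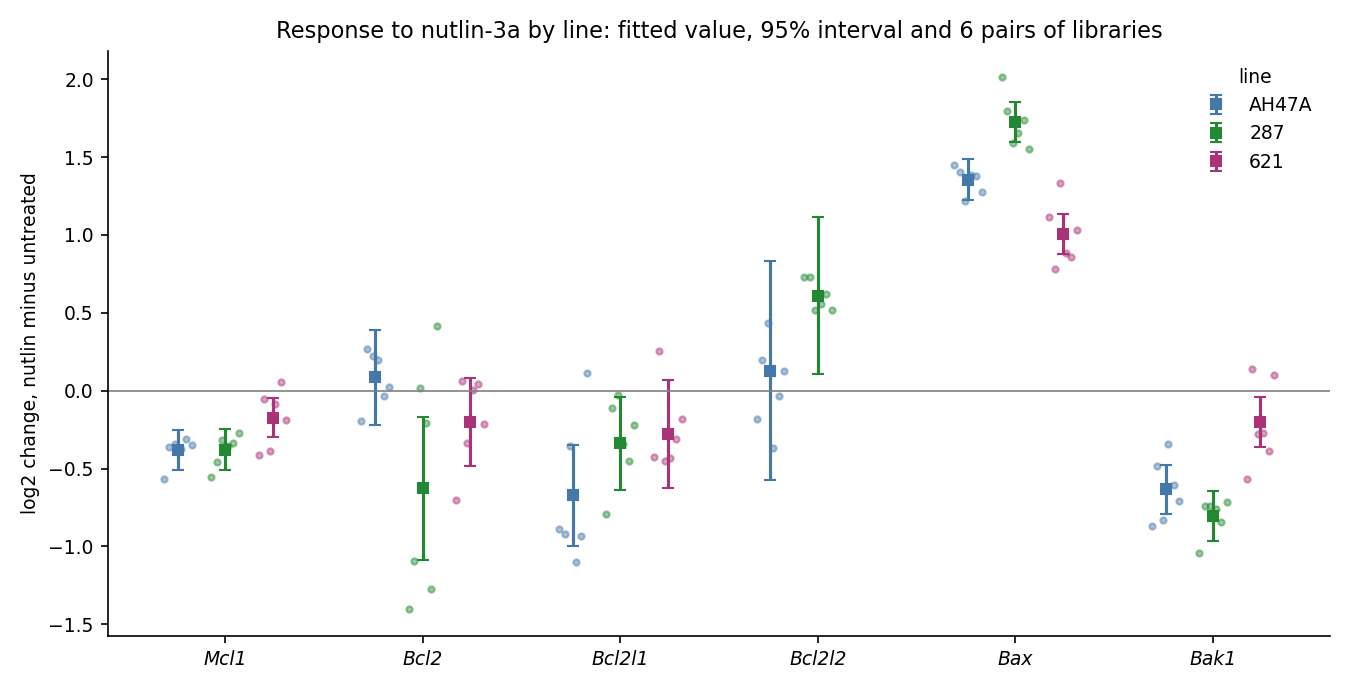
Log2 change under nutlin for the 6 tested genes by line; squares are fitted values with 95% intervals and small points are the 6 pairs of libraries. Bax lies above 0 in 18 of 18 pairs; Bcl2l2 in 621 is left out of the plot, since its 12 libraries hold 17 counts.

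The balance was lower under nutlin in 6 of 6 constructs in each line. Under nutlin it was -2.22 to -1.66 in AH47A (median -1.80), -2.93 to -2.29 in 287 (median -2.70) and -1.94 to -0.94 in 621 (median -1.41). The median change was -0.92 in AH47A, -1.08 in 287 and -0.72 in 621, and treated and untreated ranges did not meet in any line. Guardian sums went from medians of 87.8 to 68.8, 54.2 to 47.6 and 109 to 98.7 CPM per kb in AH47A, 287 and 621. Effector sums went from 160.5 to 239, 166 to 304 and 169 to 262 CPM per kb, so the rise of Bax outweighed the fall of Bak1 in each line. The line order of the untreated cells, 287 lowest and 621 highest, was also that of the treated medians.

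Responses were also fitted by construct over the 3 lines. In the control, Bax rose and 3 genes fell: 4 of 6 genes changed, where 42.7% of all genes did. Bax rose by log2 1.51 ± 0.17, Bak1 fell by 0.84, Bcl2l1 by 0.72 and Mcl1 by 0.51 (edgeR adjusted p = 3.44e-07, 0.000377, 0.0139 and 0.000474). Bcl2 was at -0.62 ± 0.27 (edgeR adjusted p = 0.0625) and Bcl2l2 at 0.37 ± 0.50 (edgeR adjusted p = 0.58). The fall of Bcl2l1 in the control was lost without AH47A (-0.65, edgeR adjusted p = 0.0697) or without 287 (-0.68, edgeR adjusted p = 0.146), without the treated AH47A control library (-0.59, edgeR adjusted p = 0.0808) and without the untreated 287 control library (-0.51, edgeR adjusted p = 0.144), which held 10.5 CPM.

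Across the 5 mutants, 10 of 30 pairs of gene and mutant passed the test, against 20.4% of pairs over all genes. With I192S and R270H 3 of 6 genes passed (24.9% and 30.2% of all genes), with R246Q 2 (21.6%) and with G280 and V170M 1 each, Bax (17.4% and 8.22%). Bax rose in all 5, by 1.28 to 1.38 on the log2 scale. Bak1 fell with I192S (-0.61), R246Q (-0.46) and R270H (-0.61), with edgeR adjusted p = 0.0108, 0.0469 and 0.00795, and was at -0.35 with G280 and -0.42 with V170M (edgeR adjusted p = 0.139 and 0.113). Mcl1 passed with I192S alone (-0.35, edgeR adjusted p = 0.018) and Bcl2l1 with R270H alone (-0.59, edgeR adjusted p = 0.0475). Each of these Bak1, Mcl1 and Bcl2l1 calls was lost without AH47A and without 287 (edgeR adjusted p = 0.0517 to 0.43). The Bak1 call with I192S was also lost without the mutant's untreated or treated 287 library (0.0933 and 0.0631), and that with R270H without its treated 287 library (0.0621). With R246Q it was lost without the untreated AH47A (0.0762) or 287 (0.244) or the treated 287 (0.204) or 621 library (0.106). The Mcl1 call with I192S was lost without line 621 (0.0651), the untreated AH47A (0.062) or 287 (0.0982) or the treated 287 (0.0836) or 621 library (0.112). The Bcl2l1 call with R270H was lost without line 621 (0.111), either AH47A library (0.234 untreated, 0.0896 treated), either 287 library (0.113 and 0.0971) or the treated 621 library (0.124), and with DESeq2 (0.0696). A term for the line's own response raised the calls to 16 of 30, and those over all genes from 12593 to 23773 of 61605 pairs.

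Mutants were set against the control within each line and treatment, and all 5 comparisons share the same control libraries. Untreated, none of 6 genes passed the test for the mean of 5 mutants, where 0.0162% of all genes did. With edgeR 1 gene, Bax, had an unadjusted p under 0.05: its difference was -0.23 ± 0.07 (unadjusted p = 0.00284, adjusted p = 1), lower in 13 of 15 pairs of libraries. DESeq2 also called none of 6. Per mutant, none of 30 pairs of gene and mutant passed, where 0.00812% of pairs over all genes did, and 4 had an unadjusted p under 0.05 with either tool. Before treatment the control had the highest Bax level of the 6 constructs in AH47A (74.3 CPM, mutants 55.8 to 63.9) and 621 (99.4 CPM, mutants 74.2 to 86.4), and the third highest in 287 (68.7 CPM, mutants 62.2 to 71.2).

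Under nutlin, Bax was lower in mutants than in the control in 15 of 15 pairs. The control was at 203 CPM in AH47A against 143 to 158 CPM in mutants, at 277 CPM in 287 against 182 to 238 CPM and at 216 CPM in 621 against 148 to 187 CPM. No mutant library reached its line's control. The mean of 5 mutants was lower by 0.42 on the log2 scale (SE 0.07, edgeR adjusted p = 7.71e-05), and leaving out any line or any treated control library kept it between -0.45 and -0.41. Each mutant passed by itself: V170M (-0.51), R246Q (-0.45), G280 (-0.41), R270H (-0.38) and I192S (-0.37), with edgeR adjusted p = 0.000193, 0.00292, 0.00283, 0.0169 and 0.0195. Of 30 pairs of gene and mutant 7 passed, 5 of them Bax, against 8.09% of pairs over all genes. G280 and R246Q had 2 of 6 genes called (10.5% and 6.06% of all genes), while V170M, R270H and I192S had Bax alone (17.6%, 3.64% and 2.66%). These counts are from edgeR. DESeq2 called 8 of 30 pairs, with 2 genes for R270H. With an additive line term in place of the line by treatment term, no member passed: the mean for Bax was -0.42 (edgeR adjusted p = 0.0979), and per mutant the adjusted p was 0.138 to 0.798. The V170M call held in every fit that left out a line or a library. The others were lost without a line: G280 without 621 (edgeR adjusted p = 0.0904), R246Q without AH47A (0.0523), R270H without AH47A or 621 (0.111 and 0.169) and I192S without AH47A or 287 (0.178 and 0.154). I192S was also lost without its own treated library of AH47A (0.121) or 287 (0.106) or the treated control of AH47A (0.0728) or 621 (0.0711). R270H was lost without its own treated library of AH47A (0.0524) or 621 (0.112) or the treated control of 621 (0.068).

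Bak1 and Mcl1 lay the other way. Bak1 in the treated control was at 103 CPM in AH47A, 89.1 in 287 and 104 in 621, and in mutants at 98.7 to 135.5, 90.4 to 109 and 113 to 172 CPM. It was higher in mutants in 13 of 15 pairs, with a mean difference of 0.28 ± 0.09 (edgeR adjusted p = 0.0281), and G280 alone passed by itself (0.44 ± 0.11, edgeR adjusted p = 0.0114). Mcl1 in the treated control was at 200.2, 113 and 263 CPM against 216 to 229, 106 to 137 and 278 to 399.9 CPM in mutants, higher in 14 of 15 pairs, with a mean difference of 0.20 ± 0.07 (edgeR adjusted p = 0.0495). With these and Bax, 3 of 6 genes passed for the mean of 5 mutants, where 16% of all genes did.

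The Bak1 and Mcl1 calls were less firm than that of Bax. Bak1 was lost without 287 (0.31, edgeR adjusted p = 0.137), without 621 (0.21, edgeR adjusted p = 0.186) and without the treated control of AH47A, 287 or 621 (edgeR adjusted p = 0.0617, 0.058 and 0.252). The G280 value was lost without 287 or 621 (edgeR adjusted p = 0.0562 and 0.293), without its treated 621 library (0.154) and without the treated 621 control (0.0975). Mcl1 was lost without AH47A, 287 or 621 (edgeR adjusted p = 0.165, 0.0596 and 0.308), without the treated control of AH47A (0.116) or 621 (0.12 on the log2 scale, edgeR adjusted p = 0.441), and DESeq2 gave an adjusted p of 0.051. Scaling by RLE or no filter gave 0.0645 and 0.0649 for Mcl1 with edgeR.

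Bcl2 passed in R246Q alone, where it was 14.9 CPM in AH47A, 3.09 in 287 and 22.0 in 621, against 9.36, 1.23 and 10.9 CPM in the treated control. The difference was 0.90 ± 0.23 (edgeR adjusted p = 0.0199), but it was lost without any of the 3 lines (edgeR adjusted p = 0.0663, 0.105 and 0.17), without any of the 3 treated R246Q libraries (0.0731, 0.0655 and 0.0584) and without the treated 621 control (0.16). R246Q had the highest Bcl2 level of the 6 constructs in each line and each treatment. The F test between the 5 mutants called none of 6 genes untreated, under nutlin or in the response with edgeR or DESeq2, where edgeR called 0.0812%, 0.0243% and 0% of all genes. At an unadjusted p under 0.05 edgeR had 1 gene, Bcl2 under nutlin (0.0351), and DESeq2 had 0.

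The responses themselves were not shown to differ between mutants and the control. For the mean of 5, none of 6 genes passed (3.38% of all genes did), while 3 genes (Bcl2, Mcl1 and Bak1) had an unadjusted p under 0.05 with edgeR and 2 with DESeq2, which also called none. Per mutant none of 30 pairs passed with either tool (0.769% of pairs over all genes with edgeR), and 4 had an unadjusted p under 0.05. The difference of responses was -0.19 for Bax (95% interval -0.39 to 0.01, edgeR adjusted p = 0.31), 0.33 for Bak1 (0.09 to 0.58, edgeR adjusted p = 0.125), 0.24 for Mcl1 (0.04 to 0.44, edgeR adjusted p = 0.184) and 0.53 for Bcl2 (0.01 to 1.05, edgeR adjusted p = 0.272). For Bax, the difference under nutlin of -0.42 is the sum of -0.23 before treatment and -0.19 in the response.

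**Figure D4:**
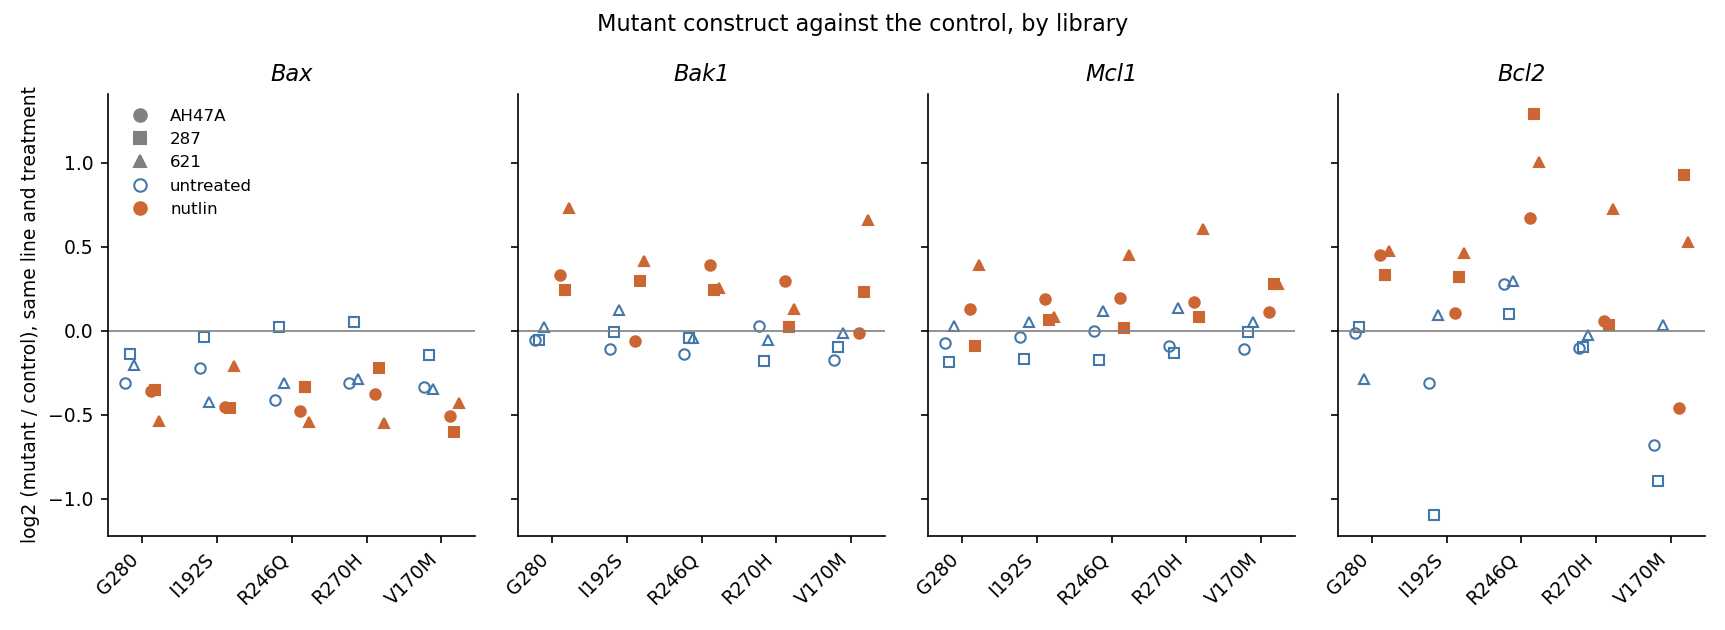
Log2 ratio of each mutant to the control of the same line and treatment for 4 genes; open points are untreated, filled points nutlin, and shapes mark the lines. Bax is below 0 in 15 of 15 treated pairs, and Bak1 and Mcl1 are above 0 in 13 and 14 of 15.

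The balance showed the same split under nutlin as a description. The treated control had the lowest balance of the 6 constructs in each line: -2.22 in AH47A against -1.83 to -1.66 in the mutants, -2.93 in 287 against -2.75 to -2.29 and -1.94 in 621 against -1.77 to -0.94. Untreated, the control was also lowest in AH47A (-0.99 against -0.95 to -0.74) and in 621 (-0.88 against -0.75 to -0.55). In untreated 287 it lay within the mutants (-1.51 against -1.68 to -1.43). The control's own change was -1.22 in AH47A, -1.42 in 287 and -1.07 in 621. Over all 6 constructs the changes ran from -1.22 to -0.78 in AH47A, -1.42 to -0.86 in 287 and -1.14 to -0.38 in 621. In 621 the control thus did not fall most.

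**Figure D5:**
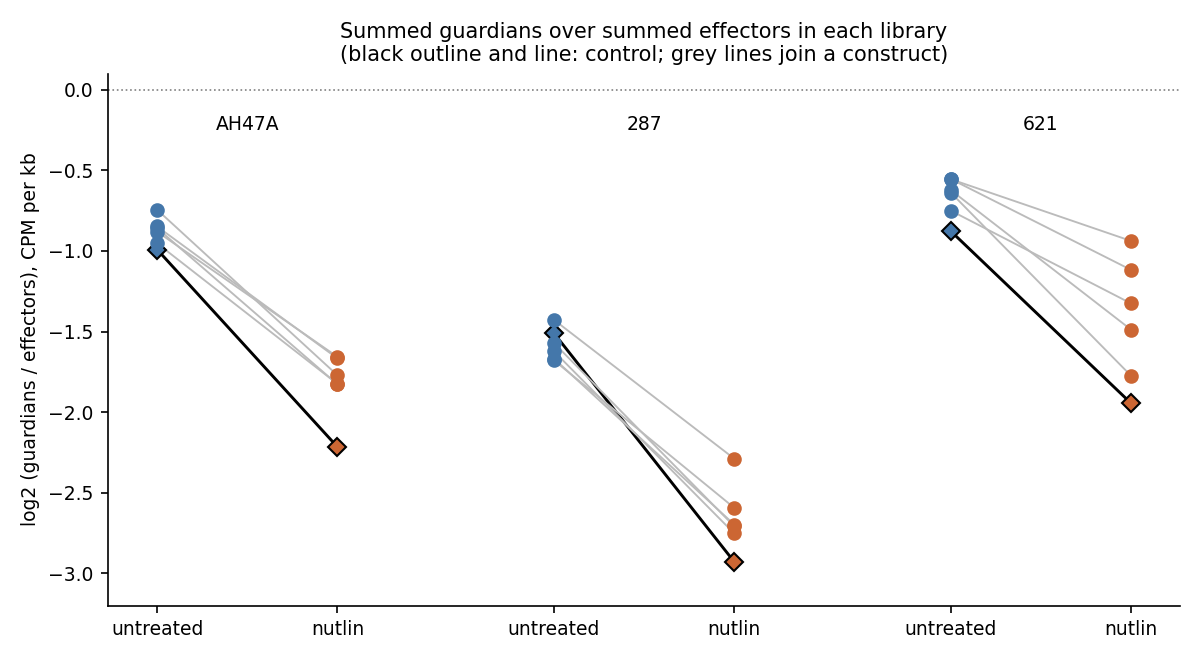
Log2 ratio of summed guardians to summed effectors (CPM per kilobase) in each library by line and treatment; lines join the 2 libraries of a construct, and black marks the control. All 36 libraries lie below 0, each construct is lower under nutlin, and the treated control is lowest in each line.

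Other genes of the pathway were followed through lists chosen with earlier results of these data known. Of 10 BH3-only genes 9 were tested, and 4 rose and 3 fell in AH47A, 4 and 3 in 287, and 3 and 3 in 621 (median log2 change 0.06, -0.30 and -0.12). That is 7, 7 and 6 of 9 called, where 43.6%, 71.9% and 55% of all genes were called in these lines, with medians of -0.0092, -0.0043 and -0.026. The 3 genes with the largest mean change in size were Pmaip1, Bbc3 and Bnip3. Pmaip1 (NOXA, which binds MCL-1) rose by 6.53, 5.80 and 4.89 in AH47A, 287 and 621, Bbc3 (PUMA, which binds all guardians) rose by 4.57, 5.81 and 2.69, and Bnip3 fell by 1.57, 3.08 and 1.22. Bnip3 is best known for marking mitochondria for removal, not for direct binding of the effectors. Under nutlin the mean of 5 mutants was lower than the control for Bbc3 (-0.74, edgeR adjusted p = 0.00797), at -0.40 for Pmaip1 (edgeR adjusted p = 0.121) and higher for Bnip3 (1.30, edgeR adjusted p = 0.0277).

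Of 8 other BCL2 homologues, 2 were tested: Bcl2l12 fell by 0.33, 1.10 and 0.61 and Bcl2l13 rose by 0.22, 0.53 and 0.22 in AH47A, 287 and 621, and each passed in each line. The copies of the survival gene A1 were near 0, with 1 count for Bcl2a1b over all 36 libraries and none for Bcl2a1a and Bcl2a1d; they are near-identical, so counts of single copies are uncertain. Of 11 genes of the mitochondrial death machinery, 3 rose and 3 fell in AH47A, 4 and 7 in 287, and 1 and 6 in 621, with median log2 changes of -0.06, -0.71 and -0.20. Of all genes 22.2%, 35.7% and 28.6% fell and 21.4%, 36.2% and 26.4% rose in these lines. Casp9, the initiator caspase, fell by 0.45, 1.35 and 0.66. Aifm1, a flavoprotein of the mitochondrial intermembrane space, fell by 0.22, 1.28 and 0.39, and Endog, a mitochondrial nuclease, by 1.12 in 287 and 0.93 in 621 with a value of -0.06 in AH47A (edgeR adjusted p = 0.819).

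Of 15 regulators of guardians and effectors in the table, 4 rose and 6 fell in AH47A, 6 and 8 in 287, and 4 and 5 in 621, with median log2 changes of -0.05, -0.27 and -0.04. The same shares of all genes, 43.6%, 71.9% and 55% called in either direction, are the background of these counts. March5, a mitochondrial ubiquitin ligase, rose by 0.23, 1.07 and 0.71. Sfn, the 14-3-3 sigma gene, fell by 1.52 in 287 and 0.88 in 621 and was at -0.55 in AH47A (edgeR adjusted p = 0.0575). Itpr2, a calcium channel gene of the endoplasmic reticulum, rose by 1.24 in 287 and 0.62 in 621 and was at 0.14 in AH47A (edgeR adjusted p = 0.354).

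Across all 36 libraries, the genes most like each member in log2 CPM were named as a description (Pearson r over libraries that share lines, treatments and control constructs, so with no p). Bax went with Susd6 (0.981), Sat1 (0.980) and Ccng1 (0.978). Bak1 went with Efhd2 (0.964), Stk11 (0.943) and Sept6 (0.928). Mcl1 went with Ctsa (0.976), Fkbp3 (0.967) and Isg20l2 (0.966), and Bcl2 with Ptpn1 (0.958), Per3 (0.956) and Fstl1 (0.954). Bcl2l2 went with Iqgap2 (0.953), Camk2b (0.951) and Osm (0.950), and Bcl2l1, the least closely, with Bcr (0.836), Endou (0.831) and Lgals9 (0.826). Among the members, Bcl2 and Mcl1 rose and fell together across libraries (0.937), Bcl2 and Bcl2l2 went opposite ways (-0.892), and so did Bax and Bak1 (-0.879); the first 2 pairs follow the lines and the last the treatment.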

How the data were processed

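The members and lists were chosen with earlier results of these data known. The deposited values are raw counts of reads per gene for 27179 genes; per the submitters' processing notes the authors used bcl2fastq 1.8.4 and featureCounts with builds mm10 and GRCm38, while no source used here names the aligner, the annotation or the strand setting. The 36 per-sample files hold the same values as the table. Genes without a symbol (859, 0.303% of counts) were kept.

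Genes with too few counts were removed with filterByExpr (minimum count 10, 12 groups of construct and treatment), which left 12321 genes. Libraries were scaled with TMM (factors 0.949 to 1.07) and tested with the quasi-likelihood test of edgeR 4.0.16 in R 4.3.3, with p-values adjusted by Benjamini and Hochberg over all genes and called below 0.05. Responses of constructs used groups plus line; responses of lines and mutant minus control also had a line by treatment term. The biological coefficient of variation was 16% and 9.68%. CPM values use the TMM scaled library size; values in pairs of libraries use an offset of 0.5 counts. The line is the block: libraries of a line deviated together in all 198 pairs checked (r 0.629 to 0.929), the pairing coming from the line label. The tests were also run on simulated data, with values not reported here. The simulated data had no line effects, so they cannot check the block or the choice of line term. Alternatives were RLE scaling, DESeq2 1.42.0, no filter, other line terms, only the libraries compared, and leaving out lines, constructs or libraries. Named genes were all 7 members, the checks, up to 3 changed genes per list by mean absolute change over lines, and the 3 genes most like each member. Gene positions are RefSeq's (GRCm38.p6), matched by gene number for 7 of 7. The summed level of the B lineage markers is not reported here.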

Additional observations from a re-analysis of the deposited data

Results flagged for a closer look

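Bax in treated AH47A stood out in the control library, at 203 CPM against a median of 149 CPM in the 5 mutants, farther from its nearest neighbour than Dixon's 95% limit for 6 samples allows; this was the only one of 42 sets of 6 libraries to do so, and chance flags about 1 in 20. The same library belongs to the comparison of mutants with the control given above.

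The response to nutlin differed between 2 or more lines in Bax and Bak1, and in Bcl2 between 1 pair of lines only. For Bax the response in 287 minus that in AH47A was 0.371, in 621 minus AH47A -0.347 and in 621 minus 287 -0.718 on the log2 scale (edgeR adjusted p = 0.0012, 0.00388 and 2.09e-07), and the joint F test of the 3 lines gave 5.6e-07. For Bak1 the response in 621 minus that in AH47A was 0.431 and minus that in 287 0.604 (edgeR adjusted p = 0.00329 and 5.54e-05), and the joint F test gave 9.3e-05. For Bcl2 the response in 287 minus that in AH47A was -0.708 (edgeR adjusted p = 0.0298), but the joint F test of the 3 lines did not pass (0.0653), and without the control, G280, R246Q or R270H construct the adjusted p was 0.104, 0.12, 0.0516 and 0.107.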

How the results depend on the processing

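Member calls lost in edgeR fits and not given above were as follows. Without the filter, Bak1 in untreated 621 minus 287 had an adjusted p of 0.0539, Bak1 in the R246Q response 0.056 and Bcl2l1 in the R270H response 0.085; with RLE scaling the last 2 had 0.0526 and 0.0533. With only the libraries compared, responses lost were Bcl2l1 in the control (0.083) and R270H (0.228), Bak1 with I192S (0.0807) and R246Q (0.0788) and Mcl1 with I192S (0.181). Differences under nutlin lost in the same way were Bax with I192S (0.371) and R270H (0.107), Bak1 with G280 (0.0617) and the mean of 5 for Bak1 (0.102) and Mcl1 (0.149). Without the block, responses lost were Bcl2l1 and Mcl1 in the control (0.231 and 0.605), Mcl1 with I192S (0.829), Bcl2l1 with R270H (0.438) and Bak1 with I192S, R246Q and R270H (0.0751, 0.206 and 0.0557). Without the block for lines (no replicate block), genes called numbered 1423 for the response of the control (2 members), 1086 for the responses of 5 mutants pooled (5 member pairs), 1 and 2 for the untreated differences (mean of 5, pooled) and 0 for the differences under nutlin and of responses, the mean of 5, pooled and between mutants, with 0 members; the Bax difference under nutlin was then -0.42 with an adjusted p of 1. With an additive line term alone, 123 genes and 0 members passed for the mean of 5 under nutlin (Bax adjusted p = 0.0979), 68 and 0 pooled, 0 genes for differences of responses, mean and pooled, and 4 genes for mutants differing untreated. With a line by treatment term the responses of 5 mutants pooled had 23773 calls and 16 for members.

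With only the libraries compared, genes called were 2942 (control), 3054 (mutants pooled, 6 member pairs), 1, 976 and 3 for untreated mean, nutlin mean (1 member) and mutants differing untreated, 0 for mutants differing under nutlin, and 13, 2830 and 974 pooled for untreated, nutlin and responses (1 member pair in the last); line 621 kept 1 member call. DESeq2 called 1, 657, 5 and 166 genes for the untreated mean, the response mean, mutants differing untreated and mutants differing under nutlin, and 9 and 1210 pooled for untreated and responses. Without the filter these were 8 for mutants differing under nutlin and 10 pooled untreated.

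Leaving out a line, construct or library gave, for genes called, 2758 to 4853 (control response), 3261 to 13830 (mutants pooled), 1 to 5, 982 to 1486 and 3 to 384 (mean of 5 untreated, nutlin, responses), 1 to 20, 1763 to 4074 and 4 to 468 (pooled), and 6 to 20 and 3 to 63 (mutants differing untreated, nutlin). Member calls ranged 3 to 5 in 287, 1 to 3 in 621, 5 to 12 for mutants pooled, 1 to 2 for the mean of 5 under nutlin and 3 to 7 pooled. Signs turned for Bcl2l2 in the control response (-0.102 without 287, otherwise up to 0.705), Bak1 in untreated 287 minus AH47A (-0.0509 to 0.0137, positive without R270H) and Mcl1 in the untreated mean of 5 (-0.0965 to 0.00833, positive without 287 or its untreated control); none passed a test.

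In plain CPM the balance medians untreated and under nutlin were 0.36 and -0.20 (AH47A), -0.36 and -0.98 (287) and 0.71 and 0.12 (621); without Mcl1 they were -4.92 and -5.75, -3.87 and -4.42, and -5.37 and -6.17. Size factors by RLE moved no median of all genes by more than 0.0222. Depth limits Bok and, in 621, Bcl2l2. Counts per library were also low for other values, such as Bcl2 in 287 (10 to 35) and Bcl2l1 in treated 621 (15 to 31).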
